A study of Homo sapiens with 12 samples.

Results

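The genes described here make microRNAs and carry them to their targets. They are the 4 Argonautes AGO1, AGO2, AGO3 and AGO4, the nuclear Microprocessor genes DROSHA and DGCR8, the exporter XPO5, and the cytoplasmic genes DICER1, TARBP2 and PRKRA. They were chosen by gene symbol, and the 10 were found among the 48114 genes of both expression tables. All 10 were abundant enough for the test, which took genes whose normalized count averaged 10 or more in PANC-1.

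A microRNA starts as a hairpin in a long transcript. DROSHA, an RNase III enzyme, cuts the hairpin out in the nucleus with its RNA-binding partner DGCR8, and XPO5 carries it to the cytoplasm. There DICER1, a second RNase III enzyme that works with the double-stranded RNA binding proteins TARBP2 and PRKRA, cuts it into a short duplex, and 1 strand is kept by an Argonaute, which pairs it with messenger RNAs and recruits proteins that silence them. AGO2 is the Argonaute known for cutting its target.

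Polyadenylated RNA was sequenced in 12 libraries of 2 human cell lines derived from pancreatic ductal adenocarcinoma, with 3 biological replicates per group according to the series description. PANC-1, which the study treats as a basal-like line, received a control siRNA (siCtrl), siRNA against the RNA-binding protein QKI (siQKI) or siRNA against the RNA-binding protein RBFOX2 (siRBFOX2). The labels give 40 nM for the knockdowns and 48 h for every group, and HPAF-II, treated as a classical line, received only siCtrl. QKI and RBFOX2 both regulate splicing, and each group is 1 cell line, so the values describe transient silencing in PANC-1 cells and do not extend to tumors. Values are normalized counts, that is gene counts divided by a size factor of the library.

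QKI fell from 25533 ± 869 normalized counts in siCtrl to 5034 ± 412 in siQKI (SD, n = 3), and RBFOX2 fell from 15429 ± 76.8 in siCtrl to 2095 ± 352 in siRBFOX2. RBFOX2 was also lower in siQKI, at 12642 ± 129 (log2 fold change -0.29, adjusted p = 0.0207 in limma), a call lost under both other scalings and without siCtrl replicate 2 or 3 or siQKI replicate 1 or 3 (adjusted p of up to 0.0692). Counts recovered from the deposited values summed to 292248837 to 376192091 per PANC-1 library and 226697015 to 309720537 per HPAF-II library. How these sums relate to fragment depth is unknown. The duct-like markers KRT8, KRT18 and KRT19 were high in both lines, whereas KRT7, EPCAM and CDH1 were low in PANC-1. Of 12 markers of other cell types, 5 to 8 were listed at 0 in every library of a group, INS and GCG in all groups. The summed level of these markers was 3987 to 4324 normalized counts in siCtrl, 7607 to 8970 in siQKI, 4495 to 6714 in siRBFOX2 and 5598 to 6125 in HPAF-II, and without the collagen gene COL1A1 their sum stayed at or under 118 for PANC-1 and was 485 to 647 for HPAF-II. Their part in the results below was not tested. HPAF-II replicate 3 stood apart from replicates 1 and 2, with a median absolute log2 difference of 0.407 and 0.464 per gene, against 0.188 between replicates 1 and 2 and 0.0932 to 0.139 within PANC-1 groups.

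In siQKI cells, 6 of the 10 genes passed the test (adjusted p under 0.05 in limma), 1 higher and 5 lower. Of the 22544 genes tested, 33.0% passed (14.9% higher, 18.1% lower). This background held every gene with a mean of at least 10, whereas the means of the 10 genes ran from 2056 to 25447. It was not matched for abundance, and the part of abundance in these counts was not tested. AGO4 rose by 108%, whereas AGO2 fell by 22.5% and AGO1, DROSHA, XPO5 and TARBP2 by 11.5% to 12.9%. In siRBFOX2 cells, 5 of 10 passed, 1 higher and 4 lower, beside 26.5% of all tested genes (14.5% lower, the rest higher). DICER1 fell by 26.1%, AGO2 by 18.7%, XPO5 by 12.5% and PRKRA by 11.0%, and AGO4 was 17.0% higher. The median log2 fold change of the 10 genes was -0.14 in siQKI and -0.098 in siRBFOX2, and that of all tested genes was 0.025 and 0.011. The knockdown groups share their siCtrl libraries, and in bulk RNA fewer cells of a kind and less RNA per cell cannot be told apart. Among all genes called in siQKI, 45.2% were higher under the deposited scaling, 58.0% with each library rescaled by its upper quartile and 57.7% with equal totals. In siRBFOX2 these shares were 45.3%, 53.5% and 60.1%, and between the knockdowns 46.2%, 55.3% and 47.8%. Under either rescaling 3 of the 10 genes rather than 5 were lower in siQKI, since AGO1 and TARBP2 no longer passed, and AGO4 was still the only one that was higher. In siRBFOX2 3 of 10 rather than 4 were then lower, since PRKRA no longer passed.

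**Figure D1:**
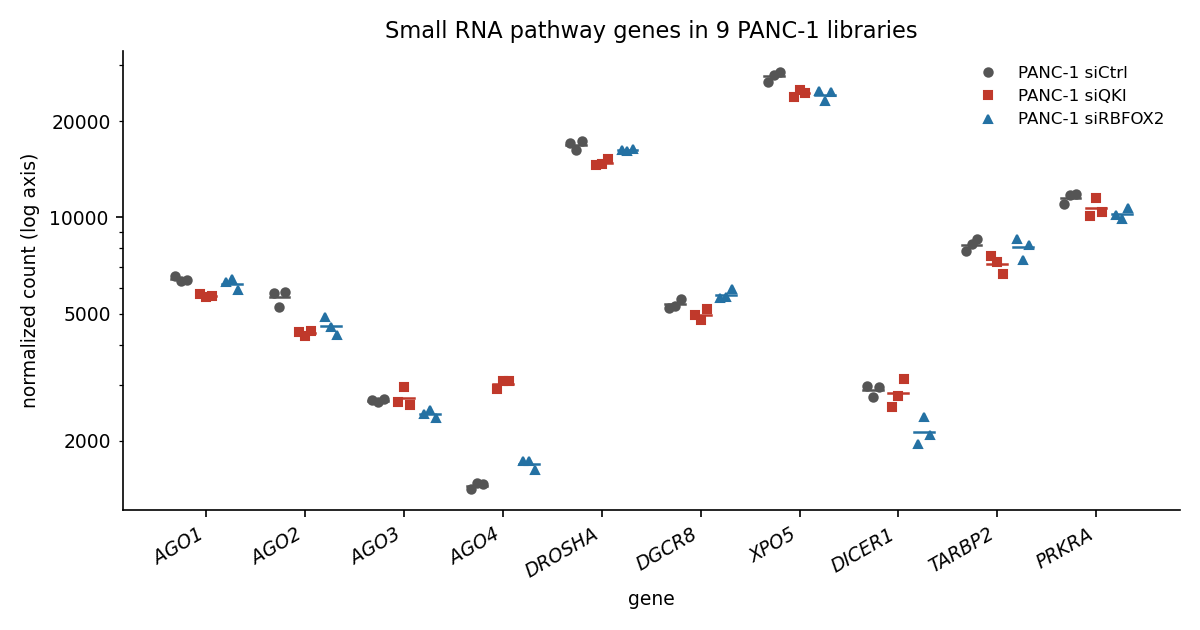
Normalized count of each gene (log axis) in the 9 PANC-1 libraries, with 3 points per group and a line at the group mean. The siQKI libraries of AGO4 sit between 2911 and 3082, above the siCtrl libraries at 1412 to 1472, and the siRBFOX2 libraries of DICER1 sit below its other 6.

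Of the Argonautes, AGO4 rose and AGO2 fell in both knockdowns. AGO4 lies on chromosome 1 (hg38, chr1:35807636-35857890) in a row with AGO1 (chr1:35869761-35930532) and AGO3 (chr1:35930718-36072500), whereas AGO2 lies on chromosome 8. AGO4 measured 1412, 1472 and 1465 normalized counts in the siCtrl libraries, 2911, 3074 and 3082 in the siQKI libraries and 1734, 1733 and 1625 in the siRBFOX2 libraries. The 3 groups did not overlap, and every siQKI library was far above all others. The log2 fold change was 1.06 ± 0.0771 (SE) in siQKI, with an adjusted p of 8.17e-08. An absolute change of at least 2-fold with a passing test was seen in 3.66% of tested genes, and AGO4 was the only one of the 10 to reach it. In siRBFOX2 (2.2% of tested genes) and between the knockdowns (1.59%) none of the 10 reached it. Its rise in siRBFOX2 was small (0.23 ± 0.0771, adjusted p = 0.0412). That call was lost when any 1 of 7 of the 9 libraries was left out, namely any siCtrl library, siQKI replicate 2 or 3, or siRBFOX2 replicate 1 or 2 (adjusted p of up to 0.111), and in a fit of the 2 groups alone (0.0915). The direct comparison of siQKI with siRBFOX2 gave 0.83 ± 0.0771 for AGO4 (adjusted p = 2.17e-06).

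AGO2 measured 5787, 5248 and 5823 normalized counts in siCtrl, 4393, 4256 and 4402 in siQKI and 4891, 4532 and 4289 in siRBFOX2. All 6 knockdown libraries were below all siCtrl libraries, and the 2 knockdown groups overlapped. The log2 fold changes were -0.37 ± 0.0651 in siQKI (adjusted p = 0.000418) and -0.30 ± 0.0651 in siRBFOX2 (adjusted p = 0.00309). Between the knockdowns AGO2 differed by -0.069, with a 95% interval of -0.21 to 0.070.

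AGO1, which shares the small RNA binding role of the family, measured 6572, 6327 and 6369 normalized counts in siCtrl, 5742, 5624 and 5693 in siQKI and 6276, 6398 and 5907 in siRBFOX2. The siQKI libraries were below all others, and the siRBFOX2 and siCtrl libraries overlapped (-0.053, 95% interval -0.17 to 0.059). Its fall in siQKI (-0.18 ± 0.0525, adjusted p = 0.0176) did not pass without siCtrl replicate 1 (0.0622) or without siQKI replicate 2 (0.0587). AGO3 measured 2679, 2646 and 2697 in siCtrl, 2649, 2941 and 2594 in siQKI and 2420, 2490 and 2356 in siRBFOX2. It passed in neither knockdown, with 95% intervals of -0.13 to 0.18 in siQKI and -0.30 to 0.012 in siRBFOX2, although its siRBFOX2 libraries were all below the siCtrl libraries. AGO1 and AGO3 are 185 bases apart and both on the plus strand, so strand in counting would not separate their reads.

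**Figure D2:**
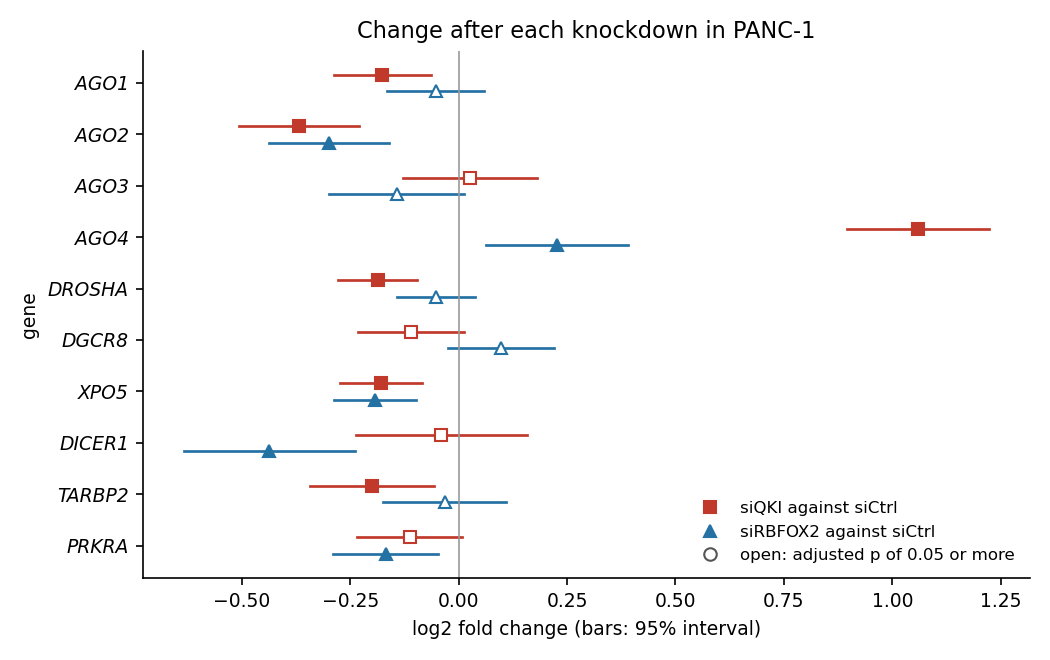
Log2 fold change of each gene in siQKI (squares) and siRBFOX2 (triangles) against siCtrl, with bars for the 95% interval and open symbols where the adjusted p was 0.05 or more. AGO4 in siQKI stands alone at 1.06, and DICER1 in siRBFOX2 is lowest at -0.44.

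Levels of different genes were compared per kilobase of merged exons, on values rescaled to a library total of 1000000. In siCtrl PANC-1 cells AGO1 made up 39.3% ± 0.669 of the summed Argonaute level (SD, n = 3), AGO2 32.5% ± 1.16, AGO4 17.2% ± 0.709 and AGO3 11.0% ± 0.157. In siQKI the share of AGO4 was 33.5% ± 0.785, that of AGO1 32.5% ± 0.591 and that of AGO2 23.5% ± 0.568, and AGO4 and AGO1 overlapped in level. In siRBFOX2 AGO4 took 21.3% ± 0.145 and AGO2 28.0% ± 0.982. In HPAF-II AGO2 took the largest share, at 40.2% ± 3.66, with AGO1 at 26.4% ± 3.89 and AGO3 at 8.30% ± 1.56, and AGO4 made up the rest. The Argonaute transcripts have long 3′ untranslated regions, and how much of them these cells use is unknown. Per kilobase of coding sequence, an alternative chosen after seeing the data, AGO4 took 8.95% ± 0.398 in siCtrl and 19.1% ± 0.523 in siQKI. The siQKI share of AGO4 was above that of siCtrl on either length, but on coding length AGO4 and not AGO3 was the least abundant Argonaute in siCtrl. On coding length the siQKI share of AGO4 was also below that of AGO1 (36.1% ± 0.604) and AGO2 (27.55% ± 0.678).

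**Figure D3:**
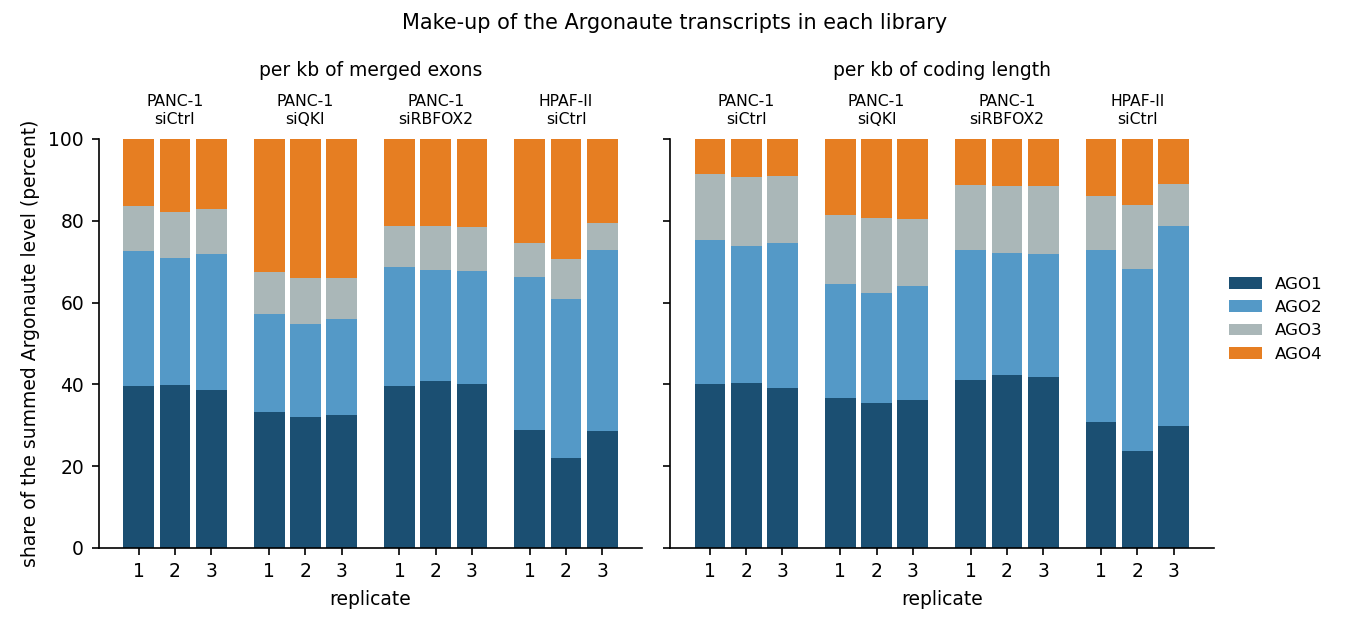
Share of each Argonaute (percent of the 4 genes' summed level) in each library, with levels per kilobase of merged exons (left) or of coding sequence (right). The AGO4 share of the siQKI libraries, 32.6% to 34.0% on merged exons, is above that of every other library.

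The knocked-down proteins bind RNA at known short motifs, so the letters ACTAAC (QKI) and TGCATG (RBFOX) were searched in 1 GENCODE v29 transcript per gene (GRCh38, sense strand only, introns not searched, the motifs do not overlap each other). The AGO4 transcript of 7116 bases held 1 ACTAAC, in its coding sequence, and 2 TGCATG, both in the 3′ untranslated region. Among 1957 transcripts within 20% of its length, 47.4% held ACTAAC and 81.6% held TGCATG. DICER1, with 10331 bases, held 3 ACTAAC and 4 TGCATG, and of 820 transcripts of like length 61.8% and 92.7% held at least 1. AGO1 held 3 and 6, AGO3 3 and 1, AGO2 0 and 4, XPO5 1 and 2, PRKRA 1 and 1, and DGCR8 0 and 2. DROSHA and TARBP2 held neither. Transcript lengths ran from 1826 bases (PRKRA) to 19687 bases (AGO3), and these counts were not adjusted for length. Of transcripts of like length to PRKRA 12.5% held ACTAAC and 35.2% TGCATG, and of those like AGO3 81.6% and 94.7%. The matches of AGO4 and DICER1, the genes with the largest changes, are shown 5′ to 3′ in transcript sequence with the motif in capitals, and a match is not evidence of binding.
AGO4 QKI motif, coding, chr1:35841373-35841378, plus strand: ccaggacctgACTAACatggttcgag
AGO4 RBFOX motif, 3′ untranslated, chr1:35854310-35854315, plus strand: acagatgtaaTGCATGtcacagtgac
AGO4 RBFOX motif, 3′ untranslated, chr1:35856374-35856379, plus strand: tgaatcgttaTGCATGtgtcaatcaa
DICER1 QKI motif, 5′ untranslated, chr14:95157957-95157962, minus strand: cccctgcaccACTAACgcgaggaaac
DICER1 QKI motif, coding, chr14:95129589-95129594, minus strand: gcattttgggACTAACtgcttccatt
DICER1 QKI motif, 3′ untranslated, chr14:95086636-95086641, minus strand: atttttcacaACTAACttgtaaatat
DICER1 RBFOX motif, coding, chr14:95111385-95111390, minus strand: gagcttgattTGCATGatgaagaaga
DICER1 RBFOX motif, coding, chr14:95096699-95096704, minus strand: gacaaaagacTGCATGctggcgaatg
DICER1 RBFOX motif, 3′ untranslated, chr14:95089353-95089358, minus strand: ttcataatgtTGCATGcatatttcac
DICER1 RBFOX motif, 3′ untranslated, chr14:95089114-95089119, minus strand: tcttttctttTGCATGcatttttccc

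Of the nuclear pair, DROSHA fell in siQKI and DGCR8 passed in neither knockdown. DROSHA (chr5:31374795-31532093) measured 17127, 16229 and 17312 normalized counts in siCtrl, 14611, 14650 and 15251 in siQKI and 16281, 16153 and 16415 in siRBFOX2. The siQKI libraries were below all 6 others, and siRBFOX2 overlapped siCtrl. The log2 fold change was -0.19 ± 0.0424 in siQKI (adjusted p = 0.00301) and -0.052 ± 0.0424 in siRBFOX2 (adjusted p = 0.422). The difference between knockdowns was -0.13 ± 0.0424 (adjusted p = 0.0342), and it lost its call under both other scalings and without siQKI replicate 1 or 2 or any 1 siRBFOX2 library (0.0505 to 0.109).

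DGCR8 (chr22:20080241-20111875), which recognizes the hairpin beside DROSHA, measured 5197, 5283 and 5562 in siCtrl, 4946, 4779 and 5153 in siQKI and 5590, 5619 and 5957 in siRBFOX2. Its siQKI libraries were all below and its siRBFOX2 libraries all above the siCtrl libraries. It passed in neither knockdown alone (-0.11 ± 0.0572, adjusted p = 0.17, and 0.098 ± 0.0572, adjusted p = 0.246), but siQKI and siRBFOX2 differed by -0.21 ± 0.0572 (adjusted p = 0.0168). That call was lost without siQKI replicate 2 (0.0772) or siRBFOX2 replicate 3 (0.0705). DGCR8 is itself a substrate of DROSHA, and RefSeq places microRNAs in its exons. The ones shown lie inside the measured transcript, and the seed, bases 2 to 8, is in capitals.
hsa-miR-3618, chr22:20085797-20085818, plus strand: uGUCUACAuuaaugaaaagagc
hsa-miR-1306-3p, chr22:20086112-20086129, plus strand: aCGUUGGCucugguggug

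XPO5 (chr6:43522334-43576041), the nuclear export receptor of hairpins, fell in both knockdowns. It measured 26523, 27938 and 28571 in siCtrl, 23722, 25068 and 24565 in siQKI and 24805, 23090 and 24738 in siRBFOX2. Every knockdown library was below every siCtrl library, and the knockdowns overlapped. The log2 fold changes were -0.18 ± 0.0445 (adjusted p = 0.00575) and -0.19 ± 0.0445 (adjusted p = 0.0045). XPO5 shares 40074 bases of its span, introns included, with POLR1C. Without strand their reads could not be told apart where exons overlap, and exon overlap was not checked. POLR1C averaged 6706 normalized counts in siCtrl, 6769 in siQKI and 6303 in siRBFOX2.

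DICER1 (chr14:95086228-95158010) was the gene of the dicing step with the largest change. It measured 2977, 2741 and 2939 in siCtrl, 2559, 2765 and 3122 in siQKI and 1951, 2382 and 2081 in siRBFOX2. The siRBFOX2 libraries were below all others, whereas siQKI spread around siCtrl. The log2 fold change was -0.44 ± 0.0923 in siRBFOX2 (adjusted p = 0.00245) and -0.039 ± 0.0923 in siQKI (adjusted p = 0.796, 95% interval -0.24 to 0.16). The knockdowns differed by 0.40 ± 0.0923 (adjusted p = 0.00567), and all 19 alternatives kept this call. An intron of DICER1 holds the microRNA gene MIR3173, which was too low to be tested. It was listed at 0 in siCtrl and siQKI and averaged 8.84 normalized counts in siRBFOX2. DICER1 also shares 356 bases with its antisense gene DICER1-AS1, which averaged 74.7, 120 and 82.9 normalized counts in siCtrl, siQKI and siRBFOX2.

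TARBP2 (chr12:53500921-53506431) and PRKRA (chr2:178431414-178451175) encode DICER1 partners, and PRKRA is also known as an activator of the kinase PKR. TARBP2 measured 7856, 8240 and 8568 in siCtrl, 7568, 7264 and 6659 in siQKI and 8588, 7344 and 8219 in siRBFOX2. Its siQKI libraries were below the siCtrl libraries (-0.20 ± 0.0665, adjusted p = 0.0309), and its siRBFOX2 libraries overlapped them (-0.032, 95% interval -0.17 to 0.11). That call was lost without siCtrl replicate 2 or 3 or siQKI replicate 2 or 3 (adjusted p of 0.0591 to 0.145). PRKRA measured 10993, 11777 and 11821 in siCtrl, 10124, 11506 and 10386 in siQKI and 10206, 9854 and 10718 in siRBFOX2. The siRBFOX2 libraries of PRKRA were below the siCtrl libraries (-0.17 ± 0.0569, adjusted p = 0.0398), and its siQKI libraries overlapped them (-0.11, adjusted p = 0.151), although without siQKI replicate 2 this gene passed there too (0.044). The siRBFOX2 call was lost without siCtrl replicate 2 or 3 or siRBFOX2 replicate 1 or 2 (adjusted p of 0.0939 to 0.131) and under both other scalings. PRKRA overlaps the non-coding gene CHROMR by 8829 bases, and CHROMR averaged 685 normalized counts in siCtrl and 1030 in siRBFOX2.

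The siQKI and siCtrl libraries did not overlap for 7 of 10 genes, beside a background of 44.7%. For siRBFOX2 against siCtrl the count was also 7 of 10, with a background of 37.9%. Between the knockdowns 4 of 10 genes passed (21.5% of all tested genes), AGO4 and DICER1 higher (9.93%) and DGCR8 and DROSHA lower in siQKI (11.6%). Without siRBFOX2 replicate 2, TARBP2 was also lower in siQKI (-0.23, adjusted p = 0.0206).

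For each member that passed in a knockdown, the nearest genes over the 9 PANC-1 libraries were found among 17878 genes by the root-mean-square difference of centred log2 values. Fold changes close to those of the member follow from this choice and are not a separate result. VSIR and DOC2A were nearest to AGO4 (0.0765 and 0.0867, against a root-mean-square of 0.457 for AGO4 itself), with log2 fold changes of 1.10 and 1.13 in siQKI. RIF1 and SERTAD2 were nearest to DICER1 (0.066 and 0.0704), with -0.36 and -0.50 in siRBFOX2. SCFD2 and SPRED2 were nearest to AGO2 (0.0492 and 0.0507). Of the genes with small changes, AGO1 was nearest to WDR44 and ANKMY2, DROSHA to BTN2A1 and HNRNPU, XPO5 to PYGB and NUP107, TARBP2 to KCNAB2 and SHKBP1, and PRKRA to LIN54 and DLD.

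Per kilobase of merged exons the levels in siCtrl PANC-1 cells ran from PRKRA (15.4 ± 0.431) and XPO5 (15.0 ± 0.418), whose libraries overlapped, through TARBP2 (12.2 ± 0.428), DROSHA (9.04 ± 0.399) and DGCR8 (3.44 ± 0.11) to AGO1 (1.35 ± 0.0465), AGO2 (1.12 ± 0.0756), DICER1 (0.783 ± 0.0437), AGO4 (0.592 ± 0.0056) and AGO3 (0.378 ± 0.0077). All other neighbours in this order did not overlap. In siQKI AGO4 stood next to AGO1 and above AGO2 and DICER1 on this length. Per kilobase of coding sequence AGO4 in siQKI (3.55 ± 0.144) was below both AGO1 (6.70 ± 0.0389) and AGO2 (5.12 ± 0.0845). By coding length PRKRA, XPO5, TARBP2 and DROSHA kept the first 4 places, and DICER1 came last.

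HPAF-II and PANC-1 were normalized apart, so the lines were described without a test, on values per 1000000 of the library total. Between the siCtrl libraries, 3 of the 10 genes differed at least 2-fold, 1 higher and 2 lower in HPAF-II, beside 53.2% of the 24673 genes compared (26.1% higher, 27.1% lower), and the libraries of 6 of 10 did not overlap, beside 63.7%. DROSHA was higher in HPAF-II, at 131, 119 and 94.6 against 50.5, 46.6 and 50.1 in PANC-1, a 2.32-fold difference taken from the difference of the mean log2 values. XPO5 was lower, at 34.4, 31.0 and 34.9 against 78.3, 80.2 and 82.7 (2.41-fold). PRKRA was lower as well, at 11.6, 10.9 and 11.8 against 32.4, 33.8 and 34.2 (2.93-fold). None of these 3 genes overlapped between the lines, and they kept a difference of at least 2-fold without HPAF-II replicate 3 (2.54, 2.46 and 2.98-fold).

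DICER1 was 1.64-fold higher in HPAF-II, at 15.2, 16.8 and 10.1 against 8.79, 7.87 and 8.51. AGO1 was 1.84-fold lower (11.4, 8.93 and 10.2 against 19.4, 18.2 and 18.4), and AGO3 1.65-fold lower (4.96, 5.93 and 3.57 against 7.91, 7.60 and 7.81). The libraries of these genes did not overlap either. AGO2 was at 15.5, 16.8 and 16.8 against 17.1, 15.1 and 16.9, and DGCR8 at 15.9, 14.7 and 15.2 against 15.3, 15.2 and 16.1, so that both overlapped. AGO4 was at 5.14, 6.15 and 3.80 in HPAF-II and 4.17, 4.23 and 4.24 in PANC-1, and TARBP2 at 12.9, 10.8 and 28.0 against 23.2, 23.7 and 24.8. For both genes HPAF-II replicate 3 alone made the lines overlap. Without it AGO4 was 1.33-fold higher and TARBP2 2.02-fold lower in HPAF-II, and 4 of 10 genes differed at least 2-fold, beside 55.9% of all genes.

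**Figure D4:**
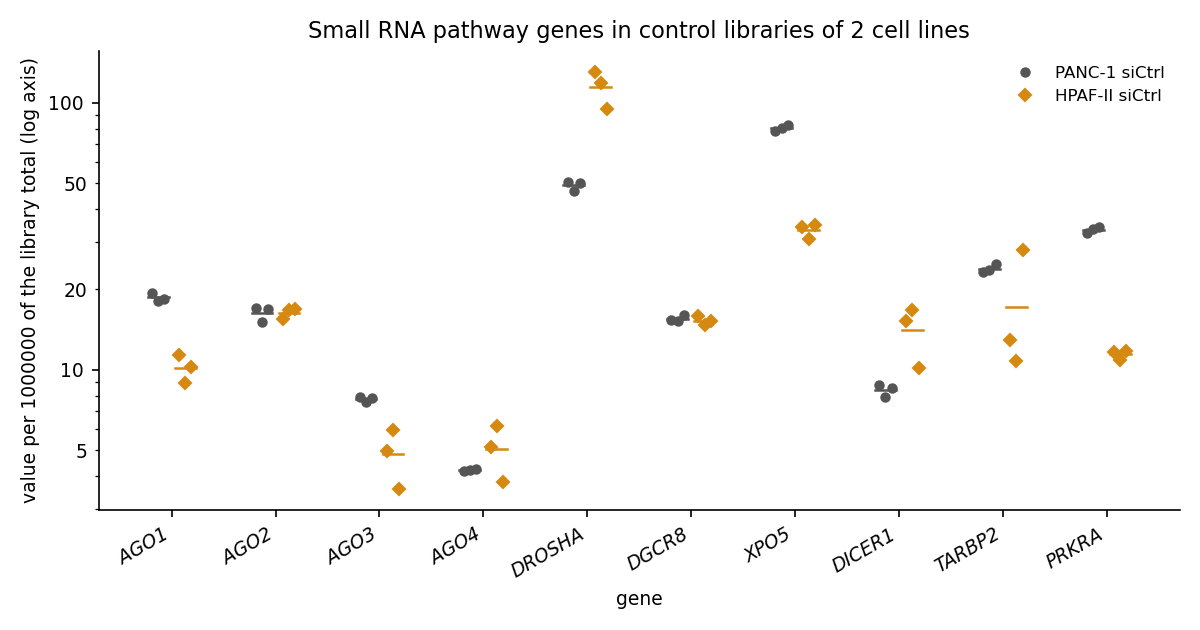
Value per 1000000 of the library total (log axis) in the siCtrl libraries of PANC-1 (circles) and HPAF-II (diamonds), with a line at each mean. DROSHA lies higher and XPO5 and PRKRA lower in HPAF-II, and 1 HPAF-II library of TARBP2, at 28.0, lies far above the other 2.

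The other genes of the pathway were described by lists. The shares of all tested genes given beside the lists were not matched for abundance either. Of the chaperones that open Argonaute for loading, all 8 fell in siQKI and 6 of 8 in siRBFOX2, with none higher, beside 18.1% and 14.5% of all tested genes lower, and the median log2 fold changes were -0.27 and -0.24. In siQKI FKBP4, an HSP90 cochaperone, fell by 28.8%, PTGES3 by 24.8% and HSP90AA1 by 0.32 on the log2 scale. In siRBFOX2 PTGES3 fell by 29.7%, HSP90AB1 by 28.5% and FKBP4 by 24.8%. With either other scaling 7 fell in siQKI and 6 in siRBFOX2. These proteins serve many clients besides Argonaute.

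Among the 19 effectors that Argonaute recruits, 10 rose and 3 fell in siQKI (median log2 fold change 0.17), and 4 rose and 5 fell in siRBFOX2 (median 0.068). Of all tested genes 14.9% were higher and 18.1% lower in siQKI, and 26.5% were called in siRBFOX2, 14.5% lower. The scaling moved the second count to 8 and 3 or 8 and 2. The scaffold gene TNRC6C rose by 40.8% in siQKI, the LIM protein gene AJUBA by 45.6% and the deadenylase subunit gene CNOT6 by 31.7%, whereas LIMD1 fell by 21.1%, EIF4ENIF1 by 16.2% and CNOT7 by 12.8%. In siRBFOX2 AJUBA rose by 35.6%, TNRC6A, another scaffold of the silencing complex, by 35.2% and PAN2 by 22.3%. The decapping enzyme gene DCP2 fell by 28.1%, PAN3 by 27.4% and CNOT8 by 15.9%.

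Of 12 Microprocessor cofactors and other binders of primary transcripts, 6 fell and none rose in siQKI, and 5 fell and 1 rose in siRBFOX2, with median log2 fold changes of -0.12 and -0.068, beside 18.1% of all tested genes lower in siQKI and 14.5% in siRBFOX2. With either other scaling 1 rose and 5 fell in siQKI. ILF2 fell by 19.6% and 22.2%, and NCBP1, a cap-binding subunit, by 16.6% and 14.3%. ERH fell by 23.7% in siRBFOX2, and the helicase gene DDX17 rose by 17.9% in siRBFOX2.

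Of 13 genes of small RNA tailing and decay, 6 fell in siQKI and 8 in siRBFOX2, and none rose in either, with median log2 fold changes of -0.13 and -0.17, beside 18.1% and 14.5% of all tested genes lower. PARN, a deadenylase that trims RNA tails, fell by 30.3% in siQKI and TENT2, a poly(A) polymerase also known as GLD2, by 28.8%. LIN28B, which binds the let-7 precursor and blocks its processing, fell by 19.9% in siQKI. In siRBFOX2 TENT2 fell by 26.3%, TSNAX by 22.1% and TSN by 19.6%. With either other scaling, 4 of the 13 fell in siQKI, and 7 or 5 in siRBFOX2.

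Of 10 sensors of double-stranded RNA, 1 rose and 2 fell in siQKI, and 4 rose and none fell in siRBFOX2, with median log2 fold changes of -0.093 and 0.28. The 3 called in siQKI were near the background of 33.0%, and the background in siRBFOX2 was 26.5%. OAS1, which makes a short RNA messenger when it binds double-stranded RNA, and the helicase gene IFIH1 rose in siRBFOX2 by 59.5% and 51.3%. Over the 19 settings tried for the lists, the deposited scaling included, 2 to 6 sensors rose in siRBFOX2, and 0 or 1 in siQKI. OAS3 fell by 16.5% and RIGI by 12.7% in siQKI. In the direct comparison 7 of 10 sensors were lower in siQKI than in siRBFOX2 and none higher, beside 11.6% of all tested genes lower. Of the 9 PIWI pathway genes 5 could be tested, and PLD6 fell by 23.1% in siQKI, a call lost under both other scalings, and PIWIL4 by 27.8% in siRBFOX2. A count of 1 in 5 is below the background of either knockdown.

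**Figure D5:**
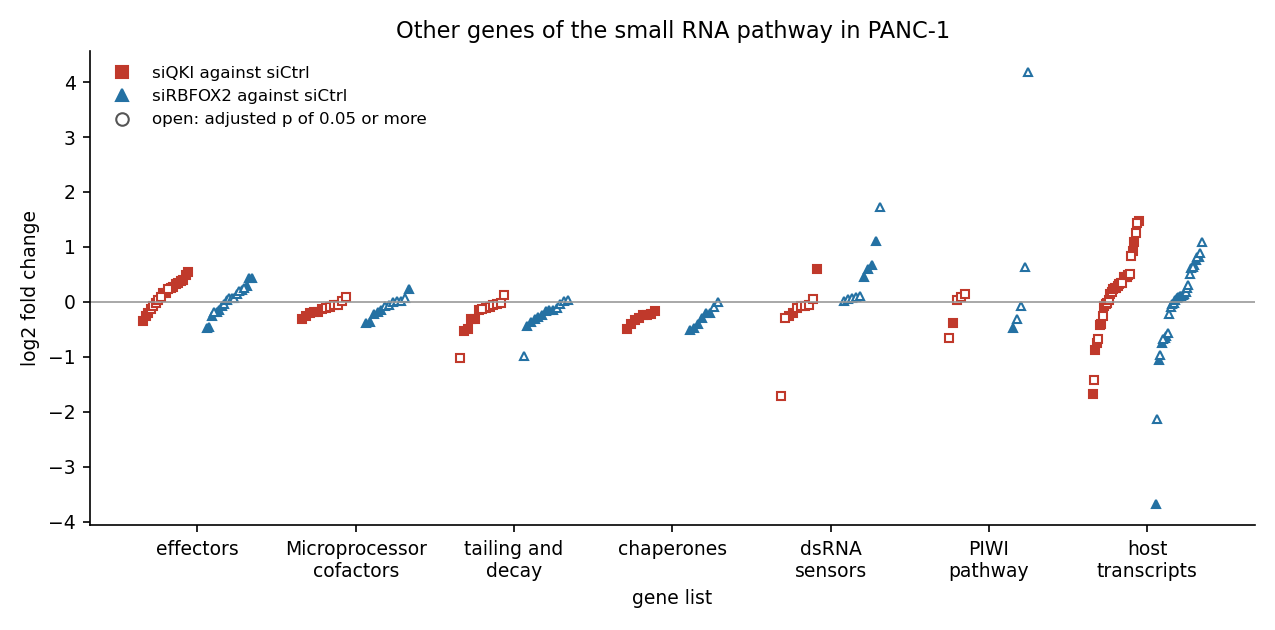
Log2 fold change of each tested gene of the 7 lists in siQKI (squares) and siRBFOX2 (triangles), with open symbols where the adjusted p was 0.05 or more. All 8 chaperones lie below 0 in siQKI, and the points farthest from 0 are in the PIWI and host transcript lists in siRBFOX2.

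Long transcripts named as microRNA hosts were measured in place of the microRNAs, which the polyadenylated libraries do not hold as mature RNA. Of 69 such genes 32 were tested, of which 6 rose and 5 fell in siQKI and 3 rose and 5 fell in siRBFOX2. The 11 called in siQKI, 34.4% of the list, and the 8 called in siRBFOX2 were close to the share of all tested genes, and the median log2 fold changes were 0.25 and 0.10. MIR31HG measured 2036, 1897 and 1754 normalized counts in siCtrl, 1018, 1017 and 1040 in siQKI and 1006, 912 and 820 in siRBFOX2. All its knockdown libraries were below all siCtrl libraries, with a log2 fold change of -0.88 ± 0.106 in siQKI (adjusted p = 1.27e-05) and -1.06 ± 0.106 in siRBFOX2 (adjusted p = 4.01e-06). MIR503HG measured 691, 844 and 651 in siCtrl, 1477, 1701 and 1484 in siQKI and 1428, 1341 and 1089 in siRBFOX2. It rose in both, by 1.10 ± 0.132 (adjusted p = 1.21e-05) and 0.82 ± 0.132 (adjusted p = 0.000289). MIR155HG fell in siQKI from 251, 182 and 132 to 94.6, 55.8 and 33.6 (-1.68 ± 0.435, adjusted p = 0.00753). MIR100HG fell in siRBFOX2 from 9910, 11059 and 11150 to 5838, 5622 and 7972 (-0.74 ± 0.107, adjusted p = 0.000115). Other hosts past the test in siQKI included MIR3677HG (1.46), MIR34AHG (0.93) and MIR924HG (-0.75). Those past it in siRBFOX2 included MIR4453HG (0.77), MIR1915HG (0.66) and MIR23AHG (-0.66).

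For the 4 hosts given by library, 5′ arm microRNAs that lie in them are shown, since these hosts passed the test, from RefSeq (GRCh38.p14), 5′ to 3′ with the seed in capitals. Mature levels were not analysed here, and no 2 of these seeds are the same.
hsa-miR-31-5p, in MIR31HG, chr9:21512158-21512178, minus strand: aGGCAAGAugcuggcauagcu
hsa-miR-503-5p, in MIR503HG, chrX:134546371-134546393, minus strand: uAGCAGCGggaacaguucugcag
hsa-miR-155-5p, in MIR155HG, chr21:25573983-25574006, plus strand: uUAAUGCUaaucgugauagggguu
hsa-miR-100-5p, in MIR100HG, chr11:122152275-122152296, minus strand: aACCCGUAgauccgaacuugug
hsa-miR-125b-5p, in MIR100HG, chr11:122099809-122099830, minus strand: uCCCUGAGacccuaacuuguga
hsa-let-7a-5p, in MIR100HG, chr11:122146568-122146589, minus strand: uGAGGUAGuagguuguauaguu

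The lists were also compared between the lines, where 26.1% of all genes compared were at least 2-fold higher in HPAF-II and 27.1% lower. In HPAF-II 8 of the 10 sensors were at least 2-fold higher than in PANC-1 and none lower, with a median log2 ratio of 3.04 (0.015 over all genes compared). OAS1 averaged 102 against 1.08 per 1000000, OAS2 50.4 against 0.555 and TLR3, a sensor in endosomes, 8.18 against 0.0532. Without HPAF-II replicate 3, 9 of the 10 sensors were higher. MIR100HG averaged 0.0592 in HPAF-II and 31.1 in PANC-1, and MIR503HG 0.0054 and 2.12. LIN28B was listed at 0 in all HPAF-II libraries and averaged 5.87 in PANC-1, with MIR9-3HG at 0 against 1.29, and LIN28A at 0 against 0.18. Of 38 host transcripts compared, 9 were at least 2-fold higher and 16 lower, beside 53.2% of all genes in either direction. Among the effectors 4 of 19 were at least 2-fold higher and 2 lower, beside the 53.2%, which moved with the settings. CNOT7 was at 77.8 against 23.7, TNRC6C at 1.24 against 5.46 and LIMD1 at 11.3 against 48.3. Among the Microprocessor cofactors 4 of 12 were higher, beside 26.1%, and none lower, with DDX5 at 784 against 337, ADAR at 520 against 190 and HNRNPA1 at 1400 against 510. Of the other lists, TUT7, a terminal uridylyltransferase, was at 18.0 against 7.66 and HENMT1, which methylates piRNA ends, at 17.3 against 8.14. No chaperone differed by 2-fold, AHSA1 being at 130.0 against 75.4.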

How the data were processed

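The study's RNA was polyA-selected and sequenced. The submitters' processing notes name STAR 2.7.5a, hg38 and DESeq2. In the deposited tables each signal value is a normalized count, a gene's count scaled by the authors with the size factor DESeq2 gave that library. The 9 PANC-1 and the 3 HPAF-II libraries were scaled apart, for genes of the FAST DB annotation. Every value was a whole multiple of 1 step per library (within 0.01), but 82.1% to 84.8% of low values were multiples of 3, so the fragment depth is unknown and precision was taken from replicates. Strand in counting is not given in the sources used here.

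The knockdown tests came from a single limma fit (version 3.58.1, R 4.3.3) of the 9 PANC-1 libraries, without a block. Variances were moderated along a trend with the mean. The response was log2(normalized count + 1), which understates changes of low genes, over 22544 genes with a mean of at least 10, with Benjamini-Hochberg adjusted p under 0.05. On simulated data for the siQKI comparison (22473 genes), 39 of 100 genes changed by 0.5 and 54 of 100 changed by 1 on the log2 scale were recovered, with 8 false calls among 101 in all. At means of at least 1000, 38 of 46 and 48 of 49 were recovered. The simulated data had independent normal noise and a far smaller share of changed genes than the 33.0% called in siQKI. These figures therefore do not give the recovery or false calls of the fit itself. The lines were compared without a test on values rescaled to a total of 1000000, with a pseudocount of 0.01. Lengths came from GENCODE v29. Python 3.11.15 and matplotlib 3.10.9 were used for summaries and figures. Other pseudocounts, filters, scalings, fits and left-out libraries were tried. Named list genes were, per list and knockdown, up to 3 with the largest rise and fall among those that passed with a mean of at least 50, and per list up to 3 with the largest ratio between lines. The members and lists were chosen with earlier results of these data known. Values of some genes that the naming rule selects are not reported here.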

Additional observations from a re-analysis of the deposited data

Results flagged for a closer look

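Of the 10 genes, 4 passed the test of siQKI directly against siRBFOX2 (limma, adjusted p under 0.05, n = 3 libraries per group). Of all tested genes 21.5% passed it. AGO4 was higher in siQKI by 0.83 on the log2 scale (adjusted p = 2.17e-06), in 3 of 3 libraries. DICER1 was higher in siQKI by 0.40 (adjusted p = 0.00567), also in 3 of 3 libraries. DGCR8 differed by -0.21 (adjusted p = 0.0168), with every siQKI library below every siRBFOX2 library. DROSHA differed by -0.13 (adjusted p = 0.0342), again without overlap, and its call was the least stable of the 4, with 10 of 19 alternatives keeping it. AGO4 and DICER1 kept their calls in 19 of 19, and DGCR8 in 16 of 19.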

How the results depend on the processing

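AGO4 and AGO2 in siQKI, AGO2, XPO5 and DICER1 in siRBFOX2, and DROSHA and XPO5 in siQKI kept their calls in all 19 alternatives, AGO4 at 1.04 to 1.12. At an adjusted p under 0.01, 3 of the 10 genes passed in siRBFOX2 and 2 between the knockdowns, with 3854 and 3105 genes in all. With 1 library left out, 3 to 5 of the 10 genes passed in siRBFOX2 and 2 to 4 between the knockdowns. The counts over all tested genes were then 4862 to 5956 and 3903 to 4793. Signs turned for values that had not passed. In siQKI, DICER1 was at 0.023 with upper-quartile and 0.021 with equal-total scaling and at -0.12 to 0.027 with 1 library left out, and AGO3 at -0.029 to 0.062. In siRBFOX2, equal totals gave AGO1 0.0035, TARBP2 0.024 and DROSHA 0.0044, and leaving out 1 library gave TARBP2 -0.081 to 0.032. Between the knockdowns XPO5 ran from -0.019 to 0.036 with 1 library left out. Between the lines AGO2 was at -0.044 with upper quartiles, -0.27 without rescaling and -0.052 to 0.043 with 1 library left out, AGO4 at -0.050 and DROSHA at 0.94, under 2-fold, without rescaling, where AGO1 at -1.16 passed 2-fold, and DGCR8 at -0.057 to 0.00050 with 1 library left out. The cause was not tested.

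With the replicate number as a block, 7336, 5891 and 4758 genes passed in siQKI, siRBFOX2 and between the knockdowns, against 7432, 5985 and 4844, and among the 10 genes the block changed only the call of AGO4 in siRBFOX2 (adjusted p = 0.0573). Deviations of libraries with the same number correlated at -0.0325 to 0.0235 over 9 pairs, and 3 of 9 libraries correlated best with their own number, so the numbers were not taken to pair the samples.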
